A study of Mus musculus with 26 samples.

Results

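In all, 9 genes of interferon gamma and JAK-STAT signalling were followed in S49 mouse T lymphoma cells treated with a cyclic AMP (cAMP) analogue: the receptor chains Ifngr1 and Ifngr2, the kinases Jak1 and Jak2, the transcription factors Stat3, Stat5a and Stat5b, and the inhibitors Socs1 and Socs3. They were chosen by gene symbol in the platform annotation, 9 of the 12393 genes that have a probe set with a single symbol, and 19 probe sets carry them. D- is a variant S49 line, called deathless because it survives raised cAMP, and WT is wild-type S49, which stops dividing and then dies. Cells of both lines were left untreated or received 8-CPT-cAMP, a cell-permeable analogue that activates protein kinase A, for 2, 6 or 24 h. The groups were therefore D- and WT cells at 0, 2, 6 and 24 h, with 4 untreated arrays and 3 arrays at each treated time in each line, 26 in all. Each is 1 cultured tumour line, the labels give the same growth protocol, written for D-, to both, and they name no cytokine among the treatments. The titles of the treated WT samples read untreated while their source and description read treated, and they were taken as treated.

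Interferon gamma binds a receptor made of IFNGR1, which contacts the ligand, and IFNGR2, which is needed for signal transmission. JAK1 is bound to IFNGR1 and JAK2 to IFNGR2, and once brought together these tyrosine kinases phosphorylate STAT proteins, which enter the nucleus and switch on interferon-inducible genes. JAK1 and JAK2 also serve many other cytokine receptors, STAT3 acts downstream of the interleukin 6 and interleukin 10 families, and STAT5A and STAT5B act downstream of interleukin 2 and interleukin 7 in T cells. SOCS1 and SOCS3 are inhibitors induced by STATs, of which SOCS1 is the main brake on the interferon gamma receptor and SOCS3 acts mainly on receptors that use the gp130 chain.

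The DNA before annotated starts is shown because a cAMP signal reaches genes through CREB, which binds the cAMP response element. A second reason is that STAT dimers bind the gamma-activated site. The 250 bases before each annotated start used here were taken from RefSeq (GRCm38.p6), which gave 11 promoters for the 9 genes. Some of these starts lie inside the gene. Both strands were searched for the palindromic element TGACGTCA, for its core TGACG, which also lies inside it, and for TTCNNNGAA. Of the 32851 mouse promoters in the table, 1.55% held TGACGTCA, 17.8% held TGACG and 7.02% held TTCNNNGAA within those 250 bases. Of the 11 promoters 2 held a match. The Jak1 promoter carried the full cAMP element at -101 to -94 from the start, and Socs3 carried a gamma-activated site at -154 to -146. The window of Jak1 is chr4:101265224-101265473, minus strand, and that of Socs3 is chr11:117969367-117969616, minus strand. Ifngr1 (chr10:19591699-19591948, plus strand) and Ifngr2 (chr16:91546809-91547058, plus strand) are shown beside them because their brightest probe sets had the largest changes at 2 h among those of the set, and neither held any of the searched motifs. RefSeq annotates a part of Jak1 and of Stat3 upstream of the start used here as well. Every window of Socs3, Stat5a and Stat5b lies wholly inside the annotated gene. The DNA before the outer ends of those genes was not searched. Capitals mark the matches, and all 4 sequences run 5′ to 3′ towards the start.
Jak1: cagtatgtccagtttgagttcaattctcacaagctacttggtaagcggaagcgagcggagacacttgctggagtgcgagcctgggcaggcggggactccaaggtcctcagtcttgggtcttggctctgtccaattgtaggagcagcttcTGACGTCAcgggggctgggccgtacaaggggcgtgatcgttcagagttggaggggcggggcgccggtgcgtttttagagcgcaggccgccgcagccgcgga
Socs3: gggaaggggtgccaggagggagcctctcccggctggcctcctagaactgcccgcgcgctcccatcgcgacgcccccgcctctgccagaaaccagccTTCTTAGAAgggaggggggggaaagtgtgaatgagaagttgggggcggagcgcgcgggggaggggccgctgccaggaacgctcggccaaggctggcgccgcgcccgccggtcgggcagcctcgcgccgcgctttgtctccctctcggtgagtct
Ifngr1: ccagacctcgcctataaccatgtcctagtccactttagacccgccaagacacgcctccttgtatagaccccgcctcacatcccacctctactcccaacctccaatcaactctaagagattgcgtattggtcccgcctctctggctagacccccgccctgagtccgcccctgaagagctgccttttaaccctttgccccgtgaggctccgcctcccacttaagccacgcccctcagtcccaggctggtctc
Ifngr2: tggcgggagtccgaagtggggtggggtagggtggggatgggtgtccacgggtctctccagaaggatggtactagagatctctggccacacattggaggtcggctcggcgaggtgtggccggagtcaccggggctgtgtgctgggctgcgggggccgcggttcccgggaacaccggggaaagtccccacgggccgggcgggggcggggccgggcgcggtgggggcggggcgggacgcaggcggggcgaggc

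In the mouse annotation Stat5b, Stat5a and Stat3 are neighbours in that order on chromosome 11, and Socs3 lies on the same chromosome. A match is a stretch of letters and not evidence that a factor binds there.

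Values are log2 of the deposited intensity, so a difference of 1 is 2-fold, and a gene is represented by its brightest probe set. A probe set was tested where it reached log2 5 on at least 3 arrays, which left 8 of the 9 genes and 17 of their 19 probe sets. Socs1 was too dim, and its only probe set is described below without a test. Called means a limma p under 0.05 after Benjamini-Hochberg adjustment over all 12724 probe sets tested. Array medians lay between 41.7 and 45.5 on the intensity scale, and arrays of a group correlated at 0.972 to 0.995 over the probe sets tested. T cell identity was borne out by T cell markers, as 8 of the 9 on the array reached the floor on at least 3 arrays. Their group means at the floor or above numbered 7 in every D- group and 8 in every WT group. All 9 summed to 16900 to 39700 intensity units per array. These sums were 23900 to 28300 untreated, 17400 to 19800 at 2 h, 16900 to 20100 at 6 h and 38200 to 39700 at 24 h in D- cells, and 27600 to 32500, 21000 to 23800, 21800 to 27600 and 35400 to 37700 in WT cells, and their part in the results was not tested. Of 6 B cell markers 1 reached the floor, of 7 myeloid markers 4 did so weakly (sums of 143 to 279), and no erythroid or stromal marker did. The arrays fall into 2 clusters that the labels do not give. Cluster 1 has 10 arrays, namely replicate 1 of every group plus replicate 2 of untreated D- and of untreated WT, and cluster 2 has the other 16. Among these genes Stat5a was higher in cluster 1 in 8 of 8 groups (mean gap 0.45) and Socs3 in 7 of 8 (0.62), while Jak1 was lower in 8 of 8 (-0.25) and Ifngr2 in 7 of 8 (-0.71). Values within each cluster stand beside the results they touch, and the part of the clusters in a result was not tested. The clusters were drawn from the scatter of these same arrays. A cluster block, or a fit within a cluster, therefore takes out scatter by construction. Adjusted p from such fits tend to be too small, and a pass there is not added support. Bulk RNA cannot tell fewer cells of a kind from less RNA per cell.

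Most of these genes were higher after 8-CPT-cAMP in both lines. In D- cells 5 of the 8 tested genes were called higher and none lower at 2 h, against 9.05% of all 7435 genes tested called higher and 13.2% lower. At 6 h the counts were 6 higher and 1 lower (16.2% and 15.6% of all genes), and at 24 h 7 higher and none lower (17.1% and 17.6%). WT cells gave 6 higher and none lower at 2 h (11.2% and 13.9%), 7 higher and 1 lower at 6 h (19.1% for each direction), and 7 higher and none lower at 24 h (26.4% and 27.5%). The gene that was lower was Socs3 in both lines. At 24 h the 7 genes called higher were the same in both, namely both receptor chains, both kinases and the 3 STATs. Within cluster 1 each treated group has 1 array and 2 residual degrees of freedom remain. Fewer calls were made there, over all probe sets as well as among these genes, and counts are not given. In their brightest probe sets the genes did not share one time course. The receptor chains and Stat3 had most of their highest change by 2 h, with a further step in WT at 24 h for Ifngr1. Both kinases, Stat5a and Stat5b had their highest group means at 24 h, and Socs3 had its lowest at 6 h. For Stat5a in WT the means at 6 and 24 h were close, 8.92 and 8.96. The dimmer probe set of Stat5b had its highest group means at 2 h, and that of Stat5a in WT at 6 h.

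**Figure D1:**
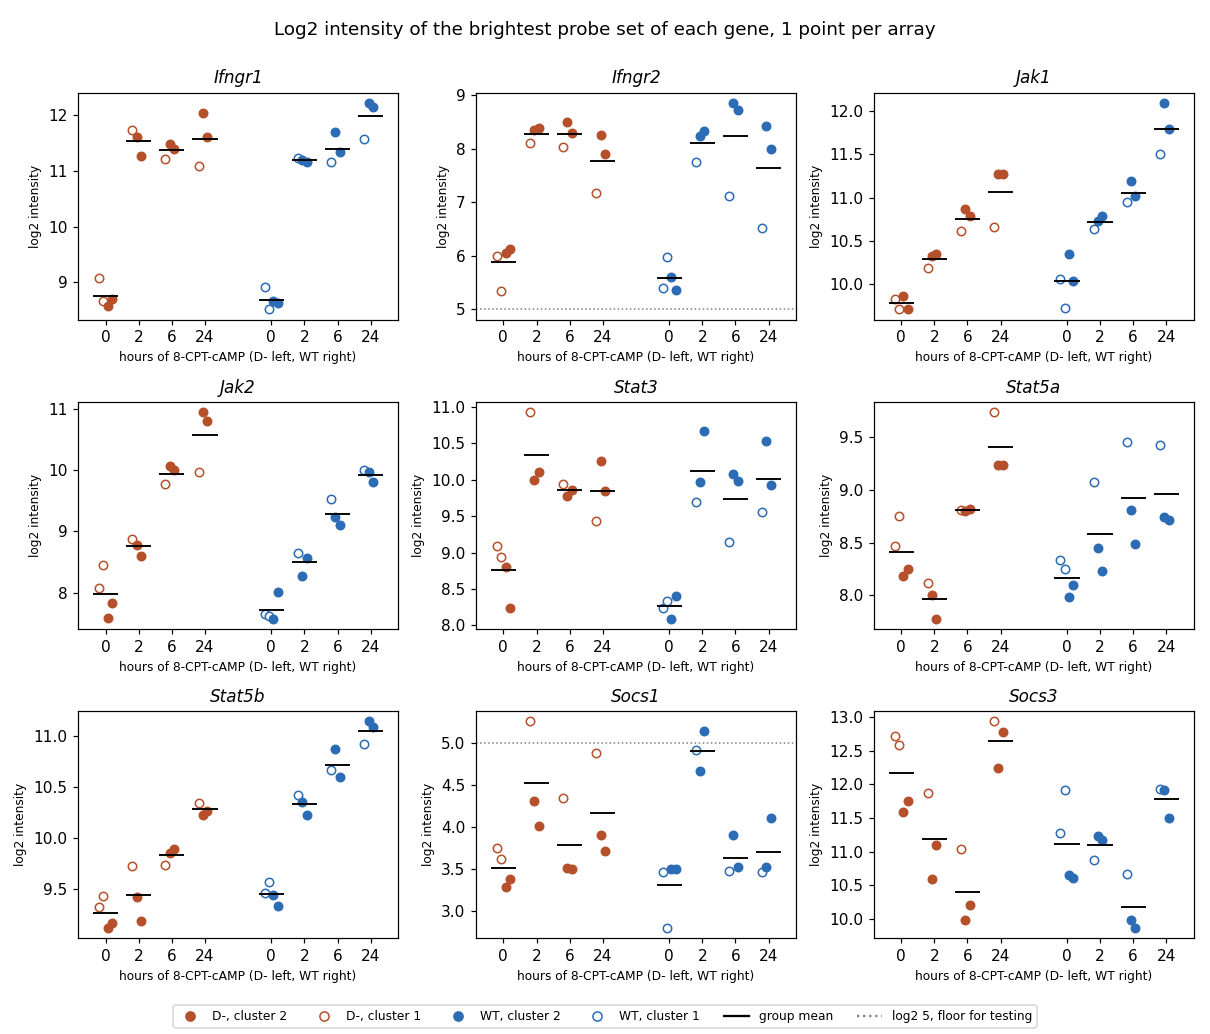
Log2 intensity (vertical axis) of the brightest probe set of each of the 9 genes on all 26 arrays, by hours of 8-CPT-cAMP (horizontal axis), with D- on the left and WT on the right of each panel. Points are arrays (open for cluster 1, filled for cluster 2), bars are group means, and the dotted line is the floor of log2 5; all treated values of Ifngr1 and Ifngr2 lie above all untreated ones, and Socs1 lies near or under the floor.

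Ifngr1 was called higher at all 3 times in both lines. In D- cells it had log2 intensities of 9.08, 8.67, 8.58 and 8.71 untreated, 11.73, 11.60 and 11.27 at 2 h, 11.22, 11.49 and 11.40 at 6 h, and 11.08, 12.03 and 11.61 at 24 h. WT cells had 8.91, 8.52, 8.66 and 8.63 untreated, 11.23, 11.20 and 11.16 at 2 h, 11.15, 11.69 and 11.34 at 6 h, and 11.58, 12.22 and 12.14 at 24 h. No treated array overlapped an untreated array in either line. The D- change against untreated was 2.77 ± 0.19 (SE) at 2 h (adjusted p = 6.14e-10), 2.61 ± 0.19 at 6 h and 2.81 ± 0.19 at 24 h. For WT it was 2.52 ± 0.19 at 2 h (adjusted p = 2.78e-09), 2.71 ± 0.19 at 6 h and 3.30 ± 0.19 at 24 h, or 5.73-fold, 6.56-fold and 9.84-fold. The level at 24 h in WT exceeded that at 6 h by 0.58 ± 0.21 (adjusted p = 0.0344), although 1 array of each group overlapped, and this step was lost without any one of 4 arrays (WT 6 h replicates 1 and 3 and WT 24 h replicates 2 and 3, adjusted p up to 0.155). In D- cells neither later step passed the test (-0.16 ± 0.21, adjusted p = 0.609, and 0.20 ± 0.21, adjusted p = 0.585).

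Ifngr2, the signalling chain, moved with it. Its log2 intensities in D- cells were 5.99, 5.34, 6.05 and 6.13 untreated, 8.11, 8.36 and 8.39 at 2 h, 8.03, 8.50 and 8.30 at 6 h, and 7.18, 8.26 and 7.90 at 24 h. In WT cells they were 5.40, 5.98, 5.61 and 5.36 untreated, 7.75, 8.24 and 8.34 at 2 h, 7.11, 8.86 and 8.73 at 6 h, and 6.51, 8.42 and 8.00 at 24 h. Treated and untreated arrays did not overlap in either line, but replicate 1, the array of cluster 1, was the lowest of its group at every treated time. The change was 2.40 ± 0.39, 2.40 ± 0.39 and 1.90 ± 0.39 in D- cells at 2, 6 and 24 h, and 2.52 ± 0.39, 2.64 ± 0.39 and 2.05 ± 0.39 in WT cells, with adjusted p between 1.94e-05 and 0.000683. In WT cells the size differed between the clusters. At 24 h the WT change was 0.82 within cluster 1 (adjusted p = 0.181) and 2.72 within cluster 2 (adjusted p = 5.9e-08), at 6 h it was 1.42 (adjusted p = 0.0883) and 3.30, and at 2 h 2.06 (adjusted p = 0.0581) and 2.80. In D- cells at 24 h it was 1.52 within cluster 1 (adjusted p = 0.0906) and 1.98 within cluster 2. The dimmer probe set of Ifngr2 had group means of 3.62 to 5.15 and was called higher at all 3 times in both lines, with overlap of the arrays in WT at 24 h. It reached the floor on 5 arrays, all of them treated. This probe set was therefore tested only through groups where it is high, and its calls are not separate support. Its group mean reached the floor at 2 h in D- cells, where the change was at least 0.15, and in no other group.

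Jak1 and Jak2 rose in steps rather than at once. Jak1 read 9.83, 9.71, 9.86 and 9.72 in untreated D- cells, 10.19, 10.33 and 10.35 at 2 h, 10.61, 10.87 and 10.79 at 6 h, and 10.66, 11.27 and 11.28 at 24 h. WT cells read 10.06, 9.73, 10.35 and 10.03 untreated, 10.64, 10.73 and 10.79 at 2 h, 10.96, 11.19 and 11.02 at 6 h, and 11.50, 12.09 and 11.80 at 24 h. Each treated group lay above all untreated arrays of its line. In D- cells the change grew over time, 0.51 ± 0.15 at 2 h (adjusted p = 0.019), 0.98 ± 0.15 at 6 h and 1.29 ± 0.15 at 24 h. WT cells had 0.68 ± 0.15 at 2 h (adjusted p = 0.00194), 1.01 ± 0.15 at 6 h and 1.75 ± 0.15 at 24 h, a 3.37-fold difference. The 2 h call in D- cells was lost without D- 2 h replicate 2 (adjusted p = 0.0671) or replicate 3 (0.0685). The step from 6 to 24 h passed in WT (0.74 ± 0.16, adjusted p = 0.00134) and not in D- (0.31 ± 0.16, adjusted p = 0.224), while that from 2 to 6 h passed in D- (0.47 ± 0.16, adjusted p = 0.0417, and up to 0.134 without any one of 5 arrays) and not in WT (0.33 ± 0.16, adjusted p = 0.151). A difference between the lines in a step was not tested, and other settings moved these calls. The WT step from 2 to 6 h passed with array weights (adjusted p = 0.0373) and a cluster block (0.0424), and the D- step from 6 to 24 h passed with array weights (0.0215), within cluster 2 (0.0296) and without D- 24 h replicate 1 (0.0289). Within cluster 1 the D- changes at 2, 6 and 24 h were 0.41, 0.84 and 0.88 and none passed (adjusted p = 0.28, 0.0737 and 0.0689). A second probe set gave 1.35 ± 0.15 in D- and 1.83 ± 0.15 in WT at 24 h. It was not called in D- at 2 h (0.36 ± 0.15, adjusted p = 0.103), and it was called for the WT step from 2 to 6 h (0.55 ± 0.16, adjusted p = 0.0183). The third stayed under log2 5 on every array.

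Jak2 covered a wider range. Its D- log2 intensities were 8.08, 8.44, 7.59 and 7.82 untreated, 8.88, 8.78 and 8.60 at 2 h, 9.77, 10.06 and 10.00 at 6 h, and 9.96, 10.95 and 10.80 at 24 h. Its WT values were 7.65, 7.61, 7.58 and 8.01 untreated, 8.64, 8.27 and 8.56 at 2 h, 9.53, 9.24 and 9.11 at 6 h, and 10.01, 9.96 and 9.81 at 24 h. In WT no array of a later time overlapped one of an earlier time. Changes were 0.77 ± 0.20, 1.96 ± 0.20 and 2.59 ± 0.20 in D- cells at 2, 6 and 24 h (adjusted p = 0.00738, 2.54e-07 and 2.98e-09). WT cells had 0.78 ± 0.20, 1.58 ± 0.20 and 2.22 ± 0.20 (adjusted p = 0.00585, 2.96e-06 and 1.01e-08). The step from 2 to 6 h passed in both lines, by 1.19 ± 0.21 in D- (adjusted p = 0.000402) and 0.80 ± 0.21 in WT (adjusted p = 0.011, and 0.057 without WT 2 h replicate 2). From 6 to 24 h it was 0.63 ± 0.21 in D- (adjusted p = 0.0536) and 0.64 ± 0.21 in WT (adjusted p = 0.0278), and the WT call ended without any one of 4 arrays (adjusted p up to 0.108). The D- step passed in the second probe set (0.69 ± 0.22, adjusted p = 0.0415), with the floor at log2 7 (0.0458), quantile normalization (0.0447), a cluster block (0.0393), the mean of probe sets (0.0299) and array weights (0.00291), within cluster 2 (0.00273) and without D- 24 h replicate 1 (0.00257). Replicate 1 was the lowest D- array at 24 h, and the D- 24 h change was 1.70 within cluster 1 and 3.16 within cluster 2. The second probe set gave 1.23, 2.09 and 2.78 in D- and 1.20, 1.87 and 2.52 in WT.

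Stat3 was called higher at 2 h in both lines. D- cells gave 9.09, 8.94, 8.80 and 8.23 untreated, 10.93, 10.00 and 10.11 at 2 h, 9.94, 9.77 and 9.85 at 6 h, and 9.43, 10.25 and 9.85 at 24 h. WT cells gave 8.25, 8.33, 8.09 and 8.41 untreated, 9.70, 9.97 and 10.66 at 2 h, 9.14, 10.08 and 9.99 at 6 h, and 9.56, 10.53 and 9.93 at 24 h. Treated arrays stood above untreated ones in both lines at every time. The change at 2, 6 and 24 h was 1.58 ± 0.28, 1.09 ± 0.28 and 1.08 ± 0.28 in D- cells (adjusted p = 0.000272, 0.00566 and 0.00538), and 1.84 ± 0.28, 1.47 ± 0.28 and 1.74 ± 0.28 in WT cells (adjusted p = 4.59e-05, 0.000357 and 2.37e-05). No step after 2 h passed the test in either line, with adjusted p from 0.265 to 0.99. At 24 h the D- change was 0.42 within cluster 1 (adjusted p = 0.145) and 1.53 within cluster 2 (adjusted p = 0.000511). It was 0.65 (adjusted p = 0.052) when all 3 probe sets were averaged. The second probe set was called higher in both lines at 2 and 6 h, in WT also at 24 h (1.35 ± 0.33), but not at 24 h in D- (0.69 ± 0.33, adjusted p = 0.12). The group means of the third were all under the floor.

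Stat5a was called higher in both lines at 24 h, and in WT also at 6 h. Its log2 intensities in D- cells were 8.47, 8.75, 8.19 and 8.25 untreated, 8.12, 8.00 and 7.78 at 2 h, 8.82, 8.80 and 8.82 at 6 h, and 9.74, 9.24 and 9.24 at 24 h. In WT cells they were 8.34, 8.25, 7.98 and 8.09 untreated, 9.08, 8.45 and 8.23 at 2 h, 9.46, 8.81 and 8.49 at 6 h, and 9.43, 8.75 and 8.72 at 24 h. In WT replicate 1 was the highest array at every treated time. At 2 h the D- arrays were all below the untreated ones, by 0.45 ± 0.22 on the log2 scale (log2 change -0.45, adjusted p = 0.175), whereas the WT value was 0.42 ± 0.22 (adjusted p = 0.19), and neither passed. Both passed in these opposite directions once the cluster was a block (-0.37 in D-, adjusted p = 0.0411, and 0.49 in WT, adjusted p = 0.00715). That block was drawn from the scatter of the same arrays, so these 2 adjusted p tend to be too small. The D- value also passed with the replicate number as a block (-0.49, adjusted p = 0.0294), and the WT value with the mean of probe sets (0.66, adjusted p = 0.0164). At 6 h D- cells had 0.40 ± 0.22 (adjusted p = 0.192) and WT cells 0.76 ± 0.22 (adjusted p = 0.0107), a call that ended without WT 6 h replicate 1 (0.49, adjusted p = 0.0986). The D- value at 6 h passed with array weights (adjusted p = 0.0225), the mean of probe sets (0.031), a cluster block (0.00791) and within cluster 2 (0.00304). At 24 h both lines passed, with 0.99 ± 0.22 in D- (adjusted p = 0.00141) and 0.80 ± 0.22 in WT (adjusted p = 0.00445). The dimmer probe set also passed at 24 h in both lines, with 1.29 ± 0.31 in D- and at least 0.67 in WT, and in WT at 2 h (at least 0.75) and 6 h (at least 0.97).

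Stat5b, the neighbour of Stat5a, was the one gene of the set called for a difference in response between the lines. Untreated D- cells read 9.32, 9.43, 9.12 and 9.17, then 9.73, 9.42 and 9.18 at 2 h, 9.74, 9.85 and 9.90 at 6 h, and 10.35, 10.23 and 10.27 at 24 h. Untreated WT cells read 9.46, 9.57, 9.44 and 9.34, then 10.42, 10.36 and 10.23 at 2 h, 10.67, 10.88 and 10.60 at 6 h, and 10.93, 11.15 and 11.09 at 24 h. Untreated arrays of the lines overlapped, and at every treated time all D- arrays lay below all WT arrays. In D- cells the change was 0.18 ± 0.11 at 2 h (adjusted p = 0.294), 0.57 ± 0.11 at 6 h (adjusted p = 0.000505) and 1.02 ± 0.11 at 24 h (adjusted p = 4.35e-07). In WT cells it was 0.88 ± 0.11 at 2 h (adjusted p = 3.93e-06), 1.26 ± 0.11 at 6 h and 1.60 ± 0.11 at 24 h (adjusted p = 2.88e-10). Each later step also passed, by 0.39 ± 0.12 and 0.45 ± 0.12 in D- cells and by 0.38 ± 0.12 and 0.34 ± 0.12 in WT cells. These steps were small and were lost in several refits that left out 1 array (adjusted p up to 0.162). With the average of both Stat5b probe sets the WT step from 6 to 24 h turned to -0.56 (adjusted p = 0.00365), the dimmer one alone giving -1.46.

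The second probe set of Stat5b had another time course. It read 5.21, 4.52, 4.09 and 4.18 in untreated D- cells, 6.39, 5.89 and 6.53 at 2 h, 5.95, 6.24 and 6.00 at 6 h, and 5.47, 5.39 and 5.38 at 24 h. In WT cells it read 4.42, 4.65, 4.75 and 4.81 untreated, 7.24, 7.22 and 7.62 at 2 h, 6.64, 7.25 and 6.58 at 6 h, and 5.45, 5.25 and 5.41 at 24 h. Here the highest group means came at 2 h, and those at 24 h were the lowest of the treated ones. Because the untreated means were under log2 5, the changes are bounds of at least 1.27, 1.07 and 0.41 in D- cells at 2, 6 and 24 h and at least 2.36, 1.82 and 0.37 in WT cells, all called. WT values at 24 h fell by 1.46 ± 0.23 on the log2 scale relative to 6 h (adjusted p = 4.22e-05), where the brighter probe set rose. Which of the gene's transcripts each probe set reads was not analysed here.

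**Figure D2:**
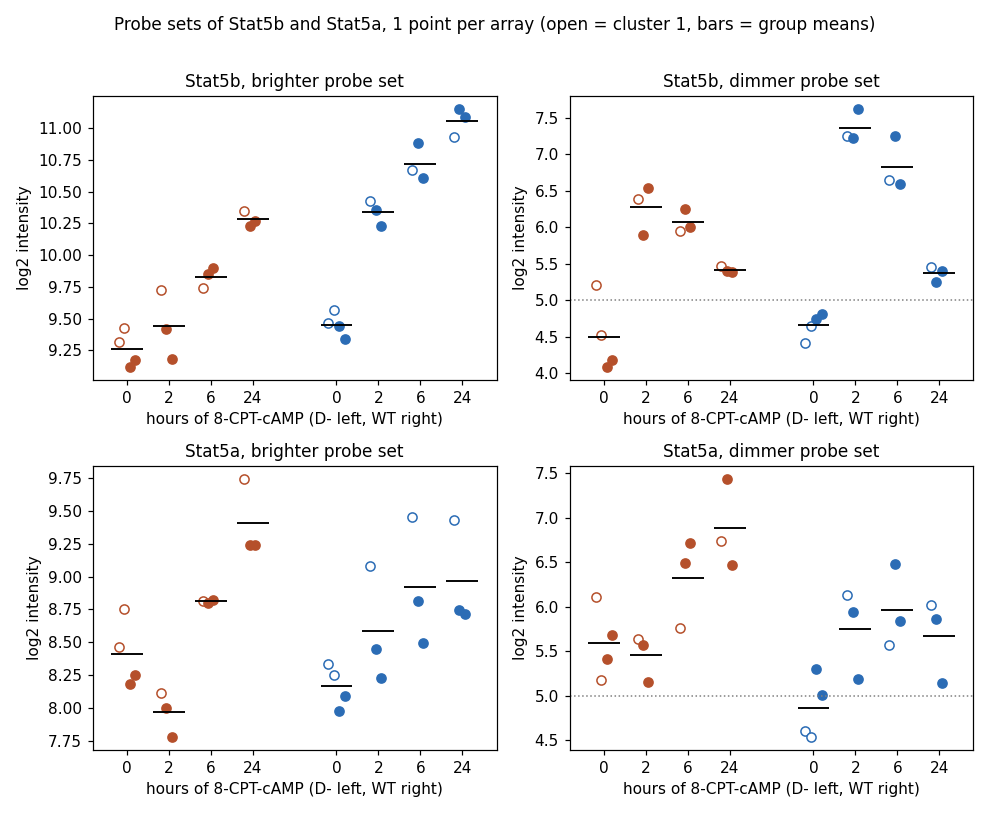
Log2 intensity (vertical axis) of both probe sets of Stat5b (top) and of Stat5a (bottom) on all 26 arrays, by hours of 8-CPT-cAMP, D- left and WT right. Open points are cluster 1, filled points cluster 2, bars are group means and the dotted line is log2 5; the brighter Stat5b probe set climbs to 24 h while the dimmer one has its highest group means at 2 h, 6.27 in D- and 7.36 in WT.

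Socs3 was the one tested gene of the set that was called lower than in untreated cells. D- cells had 12.72, 12.59, 11.59 and 11.75 untreated, 11.87, 10.60 and 11.10 at 2 h, 11.04, 9.98 and 10.21 at 6 h, and 12.94, 12.25 and 12.78 at 24 h. WT cells had 11.28, 11.92, 10.66 and 10.61 untreated, 10.87, 11.24 and 11.18 at 2 h, 10.67, 9.98 and 9.87 at 6 h, and 11.94, 11.92 and 11.50 at 24 h. Untreated arrays spread over more than 1 log2 unit in each line, and replicates 1 and 2 of cluster 1 were the higher ones. At 6 h Socs3 fell by 1.76 ± 0.35 on the log2 scale in D- cells, with no overlap (adjusted p = 0.000577, and 0.051 within cluster 1 with a similar -1.62). In WT cells at 6 h it fell by 0.95 ± 0.35 (adjusted p = 0.0397), with 1 treated array among the untreated ones, and this call ended without any one of 4 arrays (adjusted p up to 0.155). At 2 h the values were -0.98 ± 0.35 in D- (adjusted p = 0.0511) and -0.02 ± 0.35 in WT (adjusted p = 0.977). The D- value passed under 7 of the 12 other settings, with adjusted p from 0.0067 with a cluster block to 0.049 with a trended and robust fit, and without any one of 3 arrays (D- 0 h replicates 3 and 4 and D- 2 h replicate 1, adjusted p down to 0.0171). Levels then climbed between 6 and 24 h, by 2.25 ± 0.38 in D- (adjusted p = 0.000281) and 1.61 ± 0.38 in WT (adjusted p = 0.00226). Against untreated cells the 24 h values were 0.49 ± 0.35 in D- (adjusted p = 0.316) and 0.67 ± 0.35 in WT (adjusted p = 0.12). Within cluster 2 they were 0.84 (adjusted p = 0.0054) and 1.07 (adjusted p = 0.000591), and both also passed with a cluster block (adjusted p = 0.0418 in D- and 0.0063 in WT). The WT value passed with array weights (0.0367) and without WT 0 h replicate 2 (0.0302). The brightest of the 3 Socs3 probe sets bears the suffix for probes that may match other genes. The probe set without that suffix gave -1.91 ± 0.42 in D- at 6 h (adjusted p = 0.00144), -0.89 ± 0.42 in WT (adjusted p = 0.109), and steps from 6 to 24 h of 2.67 ± 0.45 and 1.80 ± 0.45.

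Socs1 could not be tested. It read 3.75, 3.62, 3.29 and 3.39 in untreated D- cells, 5.26, 4.31 and 4.01 at 2 h, 4.34, 3.51 and 3.50 at 6 h, and 4.88, 3.91 and 3.71 at 24 h. In WT cells it read 3.46, 2.80, 3.49 and 3.50 untreated, 4.91, 4.67 and 5.14 at 2 h, 3.48, 3.90 and 3.52 at 6 h, and 3.47, 3.53 and 4.11 at 24 h. Its group means were 3.51, 4.53, 3.79 and 4.17 in D- cells at 0, 2, 6 and 24 h and 3.31, 4.91, 3.63 and 3.70 in WT cells, all under the floor. The single arrays that reached log2 5 were D- 2 h replicate 1 (5.26) and WT 2 h replicate 3 (5.14). In both lines the highest group mean was that at 2 h.

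**Figure D3:**
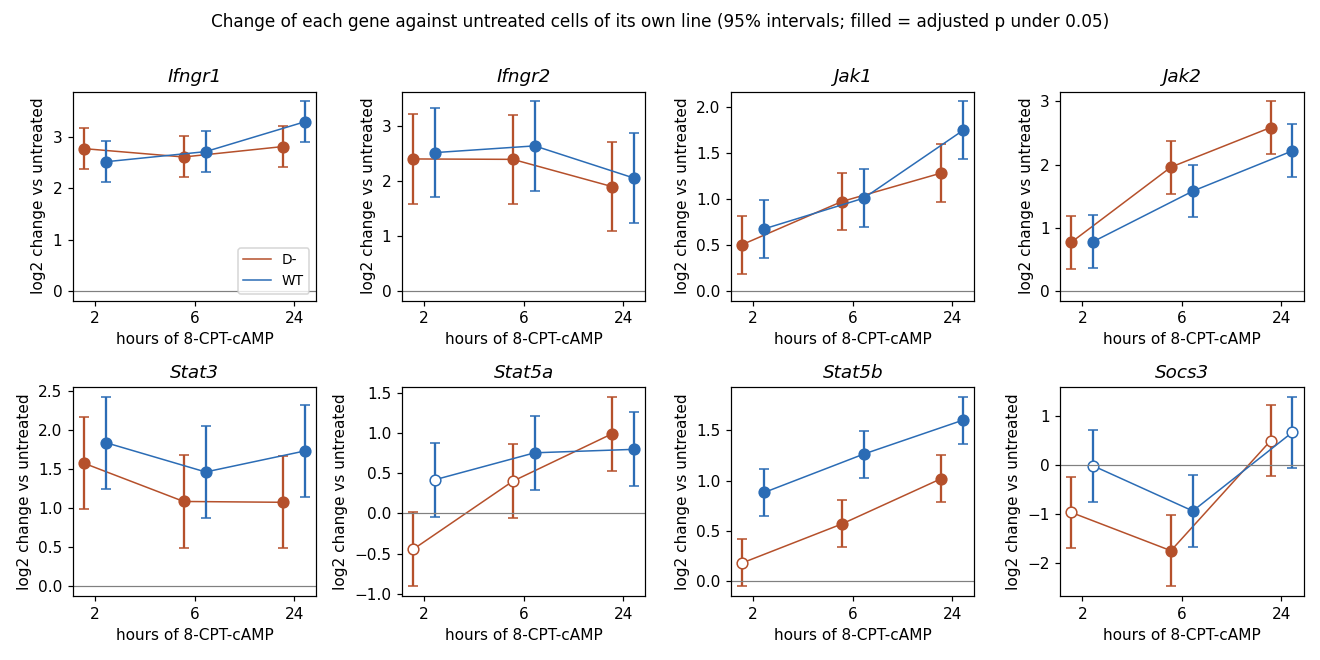
Log2 change against untreated cells of the same line (vertical axis) at 2, 6 and 24 h of 8-CPT-cAMP (horizontal axis) for the 8 tested genes, D- drawn left of WT. Bars are 95% intervals from the limma fit and filled points have an adjusted p under 0.05; the receptor chains stand at 1.90 or above at every time, Jak1, Jak2 and Stat5b have larger values at each later time, and Socs3 has its lowest values at 6 h.

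No difference between the untreated lines passed the test for this set. None of the 8 genes was called for untreated D- against untreated WT by limma (1 had an unadjusted p under 0.05), against 1.91% of all genes called higher in D- and 3.09% lower. That gene was Socs3, with 12.16 ± 0.57 in D- and 11.12 ± 0.61 in WT cells (SD, n = 4 each), a difference of 1.05 ± 0.33 (adjusted p = 0.0749, with overlap of the arrays). It passed once the cluster was a block (adjusted p = 0.00278), within cluster 2 (0.00762), with array weights (0.0119), with the replicate number as a block (0.0223), without D- 0 h replicate 3 (0.0433) and without WT 0 h replicate 2 (0.0215). Within cluster 2 Ifngr2 passed as well (0.61, adjusted p = 0.039). The 95% intervals of the other 7 reached from -0.55 for Jak1 to 1.04 for both Ifngr2 and Stat3.

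Responses to 8-CPT-cAMP were then compared between the lines as an interaction. At 2 h no gene of the set was called (2 had an unadjusted p under 0.05), against 0.0538% of all genes called for a higher response in D- and 0.188% for a lower one. At 6 h Stat5b alone was called, lower in D- (0.148% of all genes higher and 0.444% lower), and at 24 h again Stat5b alone, lower (7.32% and 5.00%). The D- minus WT difference for Stat5b was -0.70 ± 0.16 at 2 h (adjusted p = 0.0741), -0.69 ± 0.16 at 6 h (adjusted p = 0.0499) and -0.58 ± 0.16 at 24 h (adjusted p = 0.0186). The 6 h call was lost without any one of 13 of the 14 arrays in it (adjusted p up to 0.204), and under 8 of the 12 other settings (adjusted p up to 0.62). The 2 h difference became a call with array weights (adjusted p = 0.00855), with a cluster block (0.034), with the replicate number as a block (0.0417) and without D- 2 h replicate 1 (0.0135). The 24 h call was lost without WT 24 h replicate 2 (adjusted p = 0.0619), within cluster 1 (-0.44, adjusted p = 0.283) and when both probe sets were averaged (-0.19, adjusted p = 0.575). The dimmer Stat5b probe set alone gave 0.20 ± 0.30 at 24 h (adjusted p = 0.75), -0.60 ± 0.30 at 6 h and -0.93 ± 0.30 at 2 h (adjusted p = 0.411), none called.

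For the other genes a difference of response was not shown, and the intervals say how large one could be. At 24 h the 95% interval of the D- minus WT difference was -1.05 to 0.08 for Ifngr1, -1.31 to 0.997 for Ifngr2, -0.91 to -0.02 for Jak1 and -0.22 to 0.96 for Jak2. It was -1.50 to 0.18 for Stat3, -0.46 to 0.85 for Stat5a and -1.21 to 0.86 for Socs3. The interval for Jak1 leaves out 0, and its adjusted p was 0.18, or 0.0478 with a cluster block (-0.47). The 2 h difference for Stat5a, -0.87 ± 0.31, had an adjusted p of 0.56 and became a call with a cluster block (0.0373). Within cluster 2 the differences for Socs3 at 2 h (-1.40, adjusted p = 0.0487) and Ifngr2 at 6 h (-0.999, adjusted p = 0.0483) were called as well. For Jak2 and Ifngr2 the clusters gave opposite signs at 24 h: -0.68 in cluster 1 (adjusted p = 0.262) and 1.07 in cluster 2 (0.00558) for Jak2, and 0.69 (0.516) and -0.74 (0.0401) for Ifngr2. Array weights also made the 24 h difference for Jak2 a call (0.79, adjusted p = 0.013).

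**Figure D4:**
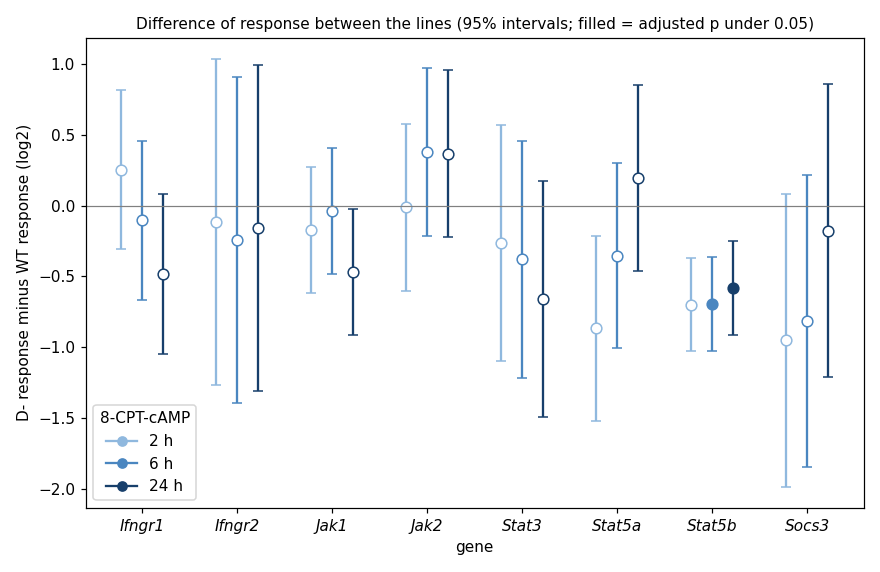
D- response minus WT response (vertical axis, log2) for the 8 tested genes at 2, 6 and 24 h of 8-CPT-cAMP. Points are fitted differences, bars 95% intervals and filled points have an adjusted p under 0.05; only Stat5b has filled points, at 6 h and 24 h.

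Between successive treated times, the counts called in either direction were 4 of 8 for D- 6 h against 2 h (23.6% of all genes) and 2 for D- 24 h against 6 h (16.1%). In WT cells they were 2 for 6 h against 2 h (21.6%) and 5 for 24 h against 6 h (32.4%). Those of D- were Jak1, Jak2, Stat5a and Stat5b in the first step and Stat5b and Socs3 in the second. Those of WT were Jak2 and Stat5b in the first step and Ifngr1, Jak1, Jak2, Stat5b and Socs3 in the second. With a cluster block Socs3 was also called lower from 2 to 6 h, in D- (-0.78, adjusted p = 0.0185) and in WT (-0.92, adjusted p = 0.0069).

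The genes most like 4 of the members across the 8 group means were sought among 2905 genes whose means spanned at least 1 log2 unit. Likeness is Pearson's r over 8 points that share arrays and a treatment, and is given as a description. Ifngr1 was matched most closely by Olig3 (r = 0.997), Slain1 (0.988) and Ptpn22 (0.986). Jak2 was matched by Zfp36l2 (0.980), Dync1i2 (0.979) and Dip2b (0.973), and Stat3 by Foxo1 (0.983), Rgs2 (0.982) and Ist1 (0.974). The closest to Socs3, with its dip at 6 h, were Desi1 (0.950), Xrcc6 (0.927) and Pycard (0.914). Within the set, Ifngr1 and Ifngr2 had an r of 0.934 with each other and 0.939 and 0.945 with Stat3, and Jak1 and Stat5b had 0.945.

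Other genes of the pathway were read from 6 lists that together name 96 genes. No list was tested as a set. At 2, 6 and 24 h 9.05%, 16.2% and 17.1% of all genes were called higher in D- and 13.2%, 15.6% and 17.6% lower. In WT 11.2%, 19.1% and 26.4% were called higher and 13.9%, 19.1% and 27.5% lower. The counts below stand against these shares. Among cytokine receptor chains that use JAKs, 11 were tested, and in D- cells 4, 4 and 6 were called higher and 1, 0 and 0 lower at 2, 6 and 24 h, with list medians of 0.21, 0.25 and 0.72. In WT cells 4, 4 and 6 were higher and 1, 1 and 0 lower, with medians of 0.16, 0.23 and 0.95, and the median over all genes lay within 0.03 of 0 at each time. Ifnar1, a chain of the type I interferon receptor, rose early like Ifngr1, by 1.70 ± 0.18, 1.81 ± 0.18 and 2.14 ± 0.18 in D- and by 2.22 ± 0.18, 2.23 ± 0.18 and 2.71 ± 0.18 in WT. Il12rb2, a chain of the interleukin 12 receptor, rose by 1.53 ± 0.27, 1.30 ± 0.27 and 1.56 ± 0.27 in D- and by 1.85 ± 0.27, 1.43 ± 0.27 and 1.72 ± 0.27 in WT. Its partner Il12rb1 was not called at 2 h in either line and rose by 2.02 ± 0.30 in D- and 2.75 ± 0.30 in WT at 24 h. Untreated D- cells had less Il12rb1 than untreated WT cells, 5.16 ± 0.59 and 6.52 ± 0.19 (SD, n = 4 each), with a difference of -1.36 ± 0.27 (adjusted p = 0.00366).

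Of 5 other JAK and STAT genes tested, 0, 2 and 1 were called higher in D- at 2, 6 and 24 h and 1, 2 and 4 in WT, and none lower. Stat2, which works with the type I interferon receptor, rose by 0.98 ± 0.20 in D- and 1.37 ± 0.20 in WT at 24 h. Jak3, the kinase of the common gamma chain, had 0.52 ± 0.25 in D- (adjusted p = 0.125) and rose by 0.91 ± 0.25 in WT at 24 h (adjusted p = 0.00475). Tyk2, the JAK of the type I interferon and interleukin 12 receptors, had 0.32 ± 0.14 in D- (adjusted p = 0.0959) and rose by 0.79 ± 0.14 in WT. The difference of response was called for neither Jak3 (-0.38 ± 0.36, adjusted p = 0.576) nor Tyk2 (-0.48 ± 0.20, adjusted p = 0.137).

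Among 13 tested negative regulators 2, 1 and 2 were higher and 4, 0 and 0 lower in D- at 2, 6 and 24 h, and 2, 3 and 4 were higher and 1, 0 and 1 lower in WT. List medians were -0.03, 0.05 and 0.07 in D- and 0.05, 0.03 and 0.10 in WT. Of these 13 genes 4 differed in response at 24 h, 1 higher and 3 lower in D-, against 7.32% and 5.00% of all genes. Ptpn6, the phosphatase SHP-1 that removes phosphate from JAKs, rose by 0.46 ± 0.15 in D- and by 1.29 ± 0.15 in WT, a difference of -0.83 ± 0.22 (adjusted p = 0.0131). Pias3, an inhibitor of STAT3, rose by 0.89 ± 0.22 in D- and 1.91 ± 0.22 in WT, a difference of -1.02 ± 0.31 (adjusted p = 0.0317). Socs6 had -0.39 ± 0.19 in D- (adjusted p = 0.131) and rose by 0.50 ± 0.19 in WT, a difference of -0.88 ± 0.27 (adjusted p = 0.0353). Socs4, called higher at 2 h in both lines (0.57 ± 0.15 in D- and 0.85 ± 0.15 in WT), had -0.23 ± 0.15 in D- (adjusted p = 0.278) and was called lower in WT, by at least 0.22, with a fitted difference of 0.75 ± 0.22 (adjusted p = 0.0272). Its WT mean at 24 h was 4.24, under the floor. With that mean set to the floor the changes were alike, -0.23 in D- and -0.22 in WT. The called difference for Socs4 therefore rests on values under the floor.

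In all, 3 ligand genes were tested. Ifng, the gene of interferon gamma itself, lay under the floor in every D- group, with means of 2.60 to 3.48, and in untreated WT cells (2.66 ± 0.015, SD, n = 4). It read 6.14 ± 2.14 in WT cells at 2 h, 5.14 ± 2.17 at 6 h and 4.10 ± 1.28 at 24 h (SD, n = 3 each). Arrays of 1 group ranged from 3.76 to 7.89 at 2 h and from 2.63 to 6.40 at 6 h. At both times the lowest was replicate 1, the array of cluster 1. The WT call at 2 h is a change of at least 1.14 (adjusted p = 0.00241) and that at 6 h of at least 0.14 (adjusted p = 0.019). Ifng reached the floor only on WT arrays at 2 and 6 h. It was therefore tested only through the groups where it is high, and the calls are not separate support. Leaving out 1 WT array moved the 2 h bound to between 0.27 (without 2 h replicate 2) and 2.34 (without 2 h replicate 1). The 6 h call ended without 6 h replicate 2 (adjusted p = 0.132) or 3 (0.128), and the bound was 1.39 without 6 h replicate 1. The fitted difference of response at 2 h, -2.64 ± 1.13, was not called (adjusted p = 0.766). Il10, the interleukin that signals through JAK1 and STAT3, fell in both lines. It had 8.78 ± 0.32, 5.88 ± 1.06, 3.98 ± 0.58 and 6.92 ± 0.49 in D- cells at 0, 2, 6 and 24 h, and 7.58 ± 0.49, 4.90 ± 0.54, 2.78 ± 0.29 and 3.69 ± 0.81 in WT cells. At 24 h it was still 1.85 ± 0.42 lower in treated D- cells (log2 change -1.85), and in treated WT cells the bound on the change was -2.58, with a fitted difference of response of 2.04 ± 0.60 (adjusted p = 0.0279). The WT mean of Il10 at 24 h was under the floor, so the size of that difference rests in part on values under it. Lif, an interleukin 6 family cytokine, passed only in WT at 24 h (1.04 ± 0.16), with a difference of response of -0.90 ± 0.23 (adjusted p = 0.0107).

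The 18 tested interferon gamma-inducible genes had 3, 8 and 6 members higher and 1, 0 and 0 lower in D- at 2, 6 and 24 h. In WT they had 5, 13 and 12 higher and 2, 1 and 0 lower. List medians were -0.14, 0.72 and 0.45 in D- and 0.19, 1.43 and 0.999 in WT, and with means under the floor set to it -0.14, 0.56 and 0.43 in D- and 0.11, 1.43 and 0.83 in WT. No gene of the list was called by limma for a difference of response at 2, 6 or 24 h (5, 2 and 4 had an unadjusted p under 0.05), with list medians of -0.49, -0.53 and -0.55, or -0.23, -0.53 and -0.44 with means under the floor set to it. Irf8, a transcription factor of myeloid and lymphoid cells, rose by 2.04 ± 0.35, 2.81 ± 0.35 and 4.17 ± 0.35 in D- and by 3.33 ± 0.35, 3.40 ± 0.35 and 3.51 ± 0.35 in WT. Gbp6, a guanylate-binding protein gene, was called only in WT, by at least 4.07 at 6 h and 3.41 at 24 h. Its WT levels were 9.07 ± 2.11 at 6 h and 8.41 ± 1.74 at 24 h (SD, n = 3 each), against 4.80 ± 0.65 untreated (n = 4). Replicate 1, the array of cluster 1, read 6.63 at 6 h and 6.41 at 24 h. The arrays of cluster 2 read 10.34 and 10.23 at 6 h and 9.20 and 9.61 at 24 h. D- levels of Gbp6 were 6.12 ± 1.89 at 6 h (4.41 to 8.14) and 5.03 ± 0.51 at 24 h, against 4.20 ± 0.15 untreated. The immunity-related GTPase gene Iigp1 was likewise called only in WT, with 7.06 ± 2.27 at 6 h and 6.61 ± 2.49 at 24 h (SD, n = 3 each), against 3.52 ± 0.33 untreated (n = 4). At both times replicate 1 was under the floor (4.44 and 3.73) and the other arrays of the group were above it. Iigp1 reached the floor only on treated arrays, so it too was tested only through groups where it is high. The Iigp1 bound of at least 2.06 at 6 h was 3.37 without 6 h replicate 1, and that of 1.61 at 24 h was 3.05 without 24 h replicate 1, 0.91 without 24 h replicate 2 and 0.87 without 24 h replicate 3. The fitted differences of response of Gbp6 and Iigp1 at 24 h, -2.78 ± 1.31 and -3.14 ± 1.14, were not called (adjusted p = 0.19 and 0.0805).

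Of 13 tested STAT3 and STAT5 targets 2, 1 and 2 were higher and 1, 2 and 2 lower in D- at 2, 6 and 24 h. In WT 3, 2 and 1 were higher and 1, 2 and 4 lower. List medians were 0.21, 0.10 and -0.03 in D- and 0.16, -0.08 and 0.11 in WT. Of all genes 17.1% were higher and 17.6% lower at 24 h in D-, and 26.4% and 27.5% in WT. Myc, a growth regulator, was lower throughout, with -3.16 ± 0.30, -1.65 ± 0.30 and -1.52 ± 0.30 in D- and -2.49 ± 0.30, -2.11 ± 0.30 and -2.16 ± 0.30 in WT. Junb, an AP-1 subunit, rose at 2 h in both lines, by 2.13 ± 0.39 in D- and 2.23 ± 0.39 in WT. At 24 h it had 0.16 ± 0.39 in D- (adjusted p = 0.806) and was called at 1.93 ± 0.39 in WT, a difference of response of -1.77 ± 0.55 (adjusted p = 0.0376). Bcl6, a transcriptional repressor, was lower at 24 h in D- (-1.90 ± 0.43, adjusted p = 0.00154) and had -0.49 ± 0.43 in WT (adjusted p = 0.369), a difference of response that was not called (-1.42 ± 0.61, adjusted p = 0.147). Ccnd3, the cyclin D3 gene, had -0.35 ± 0.20 in D- (adjusted p = 0.192) and -1.43 ± 0.20 in WT at 24 h (adjusted p = 3.61e-06), a difference of response of 1.07 ± 0.28 (adjusted p = 0.0149).

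**Figure D5:**
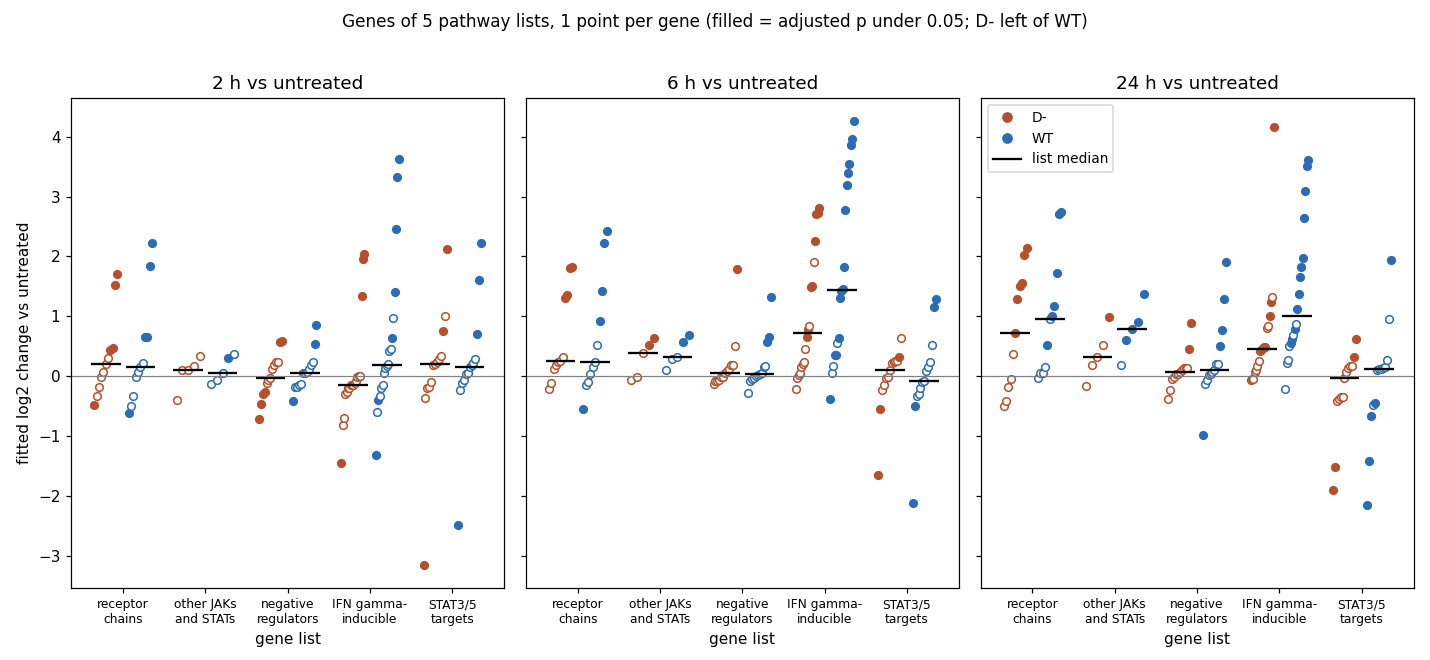
Fitted log2 change against untreated (vertical axis) of the tested genes of 5 pathway lists at 2, 6 and 24 h, 1 point per gene, D- left of WT within each list. Filled points have an adjusted p under 0.05 and bars are list medians; the interferon gamma-inducible genes at 6 h have medians of 0.72 in D- and 1.43 in WT.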

How the data were processed

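The deposited table holds GCRMA intensities on a linear scale, made by the authors per the submitters' processing notes, for 26 single-colour Affymetrix arrays. The GCRMA version is not given in the sources used here. Values ran from 2 to 83530.7, and log2 was taken with no pseudocount. Of 22690 probe sets, 20380 carry 1 symbol, 691 several and 1555 none, and 64 are controls. Probe sets at log2 5 (intensity 32) or above on at least 3 arrays were tested with limma 3.58.1 in R 4.3.3, on 8 group means and 14 comparisons (residual degrees of freedom 18, prior 3.34). Each gene is represented by its brightest probe set, and p-values were adjusted by Benjamini-Hochberg over 12724 probe sets in each comparison. The fit was tested on simulated data. The number of arrays limits precision, and error bars after ± are SE unless SD is written. The labels call replicates biological but say nothing of separate cultures; a p-value therefore covers only the scatter of these samples, which may be technical.

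Members, lists and tests were chosen with earlier results of these data known. The 9 members are named throughout. Of each list the text names the 3 called genes with the largest 24 h change in either line, those called for a difference of response, and 3 genes in any case, 1 of which was not analysed here. A change whose lower group mean was under the floor is a bound against the floor. Array clusters, taken from the leading axis of the arrays' deviations within groups (38.8% of that variance), are not a labelled batch; correlations were 0.171 to 0.44 with the own cluster and -0.439 to -0.221 with the other. In all, 12 other settings and 26 left-out arrays were tried.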

Additional observations from a re-analysis of the deposited data

Results flagged for a closer look

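In untreated WT cells 1 of the 4 arrays lay far from the others for Jak2, with a log2 intensity of 8.01 in replicate 4, and for Socs1, with 2.80 in replicate 2, a value under the floor. In all 18 groups of 4 arrays were examined in this way, and chance marks about 1 group in 20. The second Jak2 probe set read 7.58 in replicate 4 and 7.29, 7.01 and 7.59 in replicates 1, 2 and 3, so that array did not stand apart there.

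The response of Stat5b to 8-CPT-cAMP differed between the lines in the interaction test, by -0.69 at 6 h and -0.58 at 24 h (D- minus WT, log2). The single-array and cluster values for both stand beside the result.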

How the results depend on the processing

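Of 112 results on the 8 tested genes, 55 were called. None of the 40 calls of treated against untreated cells turned sign under any of the 12 other settings or the 26 left-out arrays. Over all results 75 of 2272 recomputed values turned sign, 72 of them uncalled in both fits. Replicate numbers did not pair the samples throughout, as 8 of 26 arrays correlated best with their own number. Deviations within groups correlated at -0.468 to 0.454 among arrays of replicate 2. Those of replicate 1 correlated at 0.194 to 0.655 and those of replicate 3 at 0.0294 to 0.415. With the replicate block the calls were 1 for the untreated lines and 1 for the 2 h difference of response. Of all 12724 probe sets 779 and 55 were called there.

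Within cluster 1, with 1 array in each treated group, fewer calls were made over all probe sets, and counts of genes called are not given. Within cluster 2 the counts of genes called were 2 for the untreated lines, 1 and 3 for the 2 h and 24 h differences, 5 for the D- step from 6 to 24 h and 4 for the WT step from 2 to 6 h. The cluster as a block gave 1, 2, 2, 4 and 4 for the same 5 comparisons, and array weights 1, 1, 2, 4 and 4. Over all 12724 probe sets these 5 comparisons had 889, 96, 2277, 2797 and 3594 calls within cluster 2. They had 943, 71, 2565, 3082 and 4138 with the cluster block, and 1050, 110, 3084, 3106 and 4584 with array weights. The 6 h difference had 0 calls with the floor at log2 7, with no filter, with only the groups compared, with quantile normalization, with median centring and with the mean of all probe sets. The mean of all probe sets also gave 0 for the 24 h difference, 2 for the D- step and 1 for the WT step from 2 to 6 h. With it 959, 1793 and 1626 of 6927 genes were called there. Only the groups compared gave 3 for the WT step from 6 to 24 h, with 2308 of 12724 probe sets called. Leaving out 1 array gave 0 to 1 for the untreated lines and each difference, 1 to 4 for both D- steps, 0 to 3 for the WT step from 2 to 6 h and 2 to 4 for that from 6 to 24 h.

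Signs turned as follows. Socs3 in WT at 2 h was 0.25 with array weights, 0.0087 with the mean of probe sets, 0.0873 with the cluster block and 0.57 in cluster 2. Untreated differences were -0.0274 for Ifngr2 in cluster 1, and -0.0020 for Ifngr1 and -0.0858 for Jak2 in cluster 2. For the 2 h difference Jak2 was 0.16 with array weights, 0.0176 with quantile normalization, 0.0279 with centring, 0.0088 with the mean of probe sets and 0.36 in cluster 2, while Ifngr2 was 0.38 and Stat3 0.50 in cluster 1. For the 6 h difference Jak1 was 0.0499 with array weights and 0.12 in cluster 2, and in cluster 1 Ifngr2 was 0.95, Jak2 -0.39 and Stat3 0.0787. For the 24 h difference Ifngr2 was 0.69, Jak2 -0.68 and Stat5a -0.0031 in cluster 1. In the D- step from 2 to 6 h Ifngr2 was 0.0324 with array weights and 0.0273 in cluster 2, and Ifngr1 0.0092 there. In the D- step from 6 to 24 h Stat3 was 0.15 with array weights and 0.24 in cluster 2, Stat5b -0.10 with the mean of probe sets and Ifngr1 -0.14 in cluster 1. In the WT step from 2 to 6 h the mean of probe sets gave -0.0407 for Ifngr2 and -0.0756 for Stat5b, and cluster 1 gave -0.0775 for Ifngr1 and -0.64 for Ifngr2. In the WT step from 6 to 24 h Stat5a was -0.0069 with centring, -0.12 with the mean of probe sets and -0.0286 in cluster 1, and Stat5b was -0.56 with the mean of probe sets.

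With 1 array left out, the ranges that cross 0 were -0.0241 to 0.45 (Ifngr1, D- step from 6 to 24 h), -0.22 to 0.0449 (Ifngr1, 6 h difference), -0.0276 to 0.16 (Ifngr1, untreated), -0.12 to 0.12 (Ifngr2, D- step from 2 to 6 h), -0.72 to 0.23 (Ifngr2, 24 h difference), -0.81 to 0.0682 (Ifngr2, 6 h difference), -0.19 to 0.68 (Ifngr2, WT step from 2 to 6 h), -0.14 to 0.0678 (Jak1, 6 h difference), -0.14 to 0.14 (Jak2, 2 h difference), -0.44 to 0.0286 (Socs3, 24 h difference), -0.19 to 0.24 (Socs3, WT at 2 h), -0.21 to 0.19 (Stat3, D- step from 6 to 24 h), -0.55 to 0.0122 (Stat3, 2 h difference), -0.0283 to 0.49 (Stat3, WT step from 6 to 24 h) and -0.19 to 0.31 (Stat5a, WT step from 6 to 24 h). The cause of these turns of sign was not tested. Signal near the floor limits Socs1, Ifng and the dimmer probe sets.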
